A study of Mus musculus with 17 samples.

Results

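The MHC class II presentation genes are described here in sorted epidermal stem cells of the mouse. They are Cd74, H2-Aa, H2-Ab1, H2-Eb1, H2-DMa, H2-DMb1, H2-DMb2 and the activator gene Ciita, 8 of the 48820 gene identifiers in the count table. The genes were listed by name, and the set was chosen on the counts of the Lgr6 libraries, in which Cd74 had the smallest p of all genes between Pelo -/- and WT. That comparison is therefore given below as values only, and so is every other comparison that uses the Lgr6 libraries. The members were also listed with earlier results of these data known, so their choice may not be free of the other libraries. All 8 genes were among the 30405 genes that passed the filter on low counts.

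Class II molecules are pairs of an alpha and a beta chain that show peptides from the endosomal pathway to CD4 T cells. The invariant chain, encoded by Cd74, fills their groove until they reach the endosome, where the DM proteins exchange its last fragment for a peptide. Ciita is the master activator of these genes, binds no DNA by itself, and is recruited by factors on a conserved promoter module of X and Y boxes. In the skin the best known class II cells are Langerhans cells and dendritic cells, and keratinocytes can gain class II under interferon gamma.

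Each library held 1000 GFP+ cells sorted from the epidermis of C57BL/6 mice aged 3 months, in which EGFP and the inducible recombinase CreERT2 are expressed from Lrig1, Lgr5 or Lgr6. Mutant mice (Pelo fl/fl, labelled Pelo -/-) and control mice (Pelo fl/+, labelled WT, so that the controls carry 1 floxed Pelo allele) had both received 4-OHT, which activates the recombinase. Pelo encodes a factor that rescues stalled ribosomes, and the study asked how its loss changes each population. The groups were Pelo -/- Lrig1, WT Lrig1, Pelo -/- Lgr6, WT Lgr6, Pelo -/- Lgr5 and WT Lgr5, with 3 libraries each except WT Lrig1, which had 2. The series text speaks of triplicates, and only these 17 libraries were analysed here. Nothing in the labels ties each replicate to its own animal, and the p-values therefore measure the spread between these samples, which may be technical.

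Total counts ran from 9647507 to 28098841 per library. TMM scaling factors ran from 0.688 to 1.91, with the Lgr5 libraries at the upper end. Pelo itself did not separate the genotypes, with 0.483 to 3.82 CPM in Pelo -/- Lrig1 against 3.72 and 6.05 CPM in WT Lrig1, and overlapping levels in the other populations. Lgr5 marked its own sort, with 276 to 570 CPM in the Lgr5 libraries and at most 29.4 CPM elsewhere. Lrig1 and Lgr6 did not, since Lrig1 reached 39.3 to 60.02 CPM in the Lgr6 libraries and Lgr6 reached 58.3 to 109 CPM in the Lrig1 libraries. Epidermal identity was plain in all 17 libraries, in which Krt15 stood between 2840 and 9406 CPM and Trp63 between 589 and 1255 CPM.

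RefSeq promoter sequences on GRCm38.p6 were at hand for 5 of the 8 genes. The following 100-base windows, from 130 to 31 bases before the start site and read along the coding strand, show the X and Y module that Ciita-dependent promoters share. Capitals mark the 3 motifs searched. These are TGATTGG (the Y box core), CNGATGATG (an X box core) and TGACGTC (an X2 core). They come from chr17:34287854-34287953 (minus strand) for H2-Aa, chr17:34305737-34305836 (plus strand) for H2-Eb1 and chr17:34145119-34145218 (plus strand) for H2-DMb2. The third window lies inside the first intron of 1 annotated H2-DMb2 transcript that starts further upstream.
H2-Aa: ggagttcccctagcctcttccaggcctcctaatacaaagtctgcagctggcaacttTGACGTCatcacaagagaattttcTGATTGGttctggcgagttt
H2-Eb1: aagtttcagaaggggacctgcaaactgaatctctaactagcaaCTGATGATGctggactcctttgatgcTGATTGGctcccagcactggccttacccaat
H2-DMb2: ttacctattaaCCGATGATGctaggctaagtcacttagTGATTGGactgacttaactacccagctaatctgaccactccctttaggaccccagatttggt

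TGATTGG began 50 bases before the start site in H2-Aa, 61 before it in H2-Eb1 and 92 before it in H2-DMb2. H2-DMb1 held the same letters 63 bases before its start. CNGATGATG preceded TGATTGG in H2-Eb1, H2-DMb1 and H2-DMb2, with 17, 18 and 18 bases between the 2 motifs. H2-Aa held TGACGTC in that place, 17 bases before TGATTGG, and its reverse complement overlapped it by all but 1 base. Among all 32851 promoters of the table, searched on both strands over 300 bases, TGATTGG was in 7.82%, TGACGTC in 3.21% and CNGATGATG in 0.956%. These letters were absent from the windows of the 2 RefSeq starts of H2-DMa. The motifs were chosen after the promoters of these genes had been read, so their presence is a description. The gene with the highest counts among those printed (H2-Aa) and a gene near the floor (H2-DMb2) hold the same Y box core.

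On GRCm38, Cd74 lies on the plus strand of chromosome 18 (60803848 to 60812652) and Ciita on the plus strand of chromosome 16 (10480059 to 10528418). The other 6 genes lie in the class II region of chromosome 17, in the order H2-DMa (34119541 to 34139101), H2-DMb2 (34143307 to 34151555), H2-DMb1 (34153072 to 34160230), H2-Ab1 (34257689 to 34269419), H2-Aa (34282744 to 34287823, minus strand) and H2-Eb1 (34305867 to 34316674), the rest on the plus strand. H2-DMb1 and H2-DMb2 are near-identical paralogs, so the split of reads between them is uncertain. Exons of H2-DMa overlap antisense Brd2 over 360 bp and those of Ciita overlap antisense Dexi over 329 bp. Without a statement that strand was used in counting, reads over those stretches cannot be assigned to one gene or the other.

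Cd74 was abundant in Lrig1 and Lgr6 cells and close to absent in Lgr5 cells. Cd74 had 58.5, 103 and 66.9 CPM in Pelo -/- Lrig1, against 35.4 and 122.6 CPM in WT Lrig1. It stood at 32.4, 38.5 and 35.2 CPM in Pelo -/- Lgr6 and at 330.8, 121.2 and 124.7 CPM in WT Lgr6. The Lgr5 libraries held 0.528, 0.709 and 0.268 CPM in Pelo -/- and 0.744, 0.577 and 1.09 CPM in WT. Every Lrig1 and Lgr6 library thus lay above every Lgr5 library, and the counts behind these values were 554 to 5546 in the Lrig1 and Lgr6 libraries and 5 to 20 in the Lgr5 libraries. The order of group means was WT Lgr6, WT Lrig1, Pelo -/- Lrig1, Pelo -/- Lgr6, WT Lgr5 and Pelo -/- Lgr5. The first 3 neighbours and the last 2 overlapped in their libraries, while Pelo -/- Lgr6 overlapped neither neighbour in this order. WT Lrig1, which is not its neighbour, did overlap it, since WT Lrig1 replicate 1 at 35.4 CPM lay among the Pelo -/- Lgr6 libraries. Fewer class II cells in a sort and less class II RNA per cell cannot be told apart in these bulk samples.

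H2-Aa, the alpha chain of the A molecule, followed the same split. It stood at 23.7, 36.8 and 41.1 CPM in Pelo -/- Lrig1 and at 26.4 and 39.5 CPM in WT Lrig1. Among Lgr6 libraries H2-Aa had 21.5, 18.4 and 10.04 CPM in Pelo -/- against 103, 51.3 and 28.04 CPM in WT. The Lgr5 libraries held 0.176, 0.567 and 0.483 CPM in Pelo -/- and 0.338, 0.0641 and 1.26 CPM in WT. No Lgr5 library came near the lowest library of the other populations. Its group order differed from that of Cd74 only in the places of WT Lrig1 and Pelo -/- Lrig1, whose libraries overlapped.

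H2-Ab1, which encodes the partner beta chain, was less abundant and less split. It stood at 4.52, 2.90 and 2.26 CPM in Pelo -/- Lrig1 and at 7.43 and 7.74 CPM in WT Lrig1. Among Lgr6 libraries H2-Ab1 had 1.11, 2.31 and 4.62 CPM in Pelo -/- against 10.4, 22.9 and 8.80 CPM in WT. The Lgr5 libraries held 0.528, 0.922 and 1.61 CPM in Pelo -/- and 2.30, 0.897 and 1.59 CPM in WT. The lowest Pelo -/- Lgr6 library lay among the Lgr5 libraries. Pelo -/- Lrig1 replicate 3, at 2.26 CPM, also lay below WT Lgr5 replicate 1, at 2.30 CPM. The WT Lgr6 and WT Lrig1 libraries lay above all Lgr5 libraries.

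Per kilobase of exon, H2-Aa exceeded H2-Ab1 by 1.47 to 13.1 times in the 11 Lrig1 and Lgr6 libraries. The ratio was 0.0483 to 0.536 in the 6 Lgr5 libraries, where H2-Aa rested on 1 to 23 counts. The 2 chains of 1 molecule were thus unequal in level in either direction, and the ratio did not overlap between Lgr5 and the other populations.

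H2-Eb1 encodes the beta chain of the E molecule, whose alpha chain gene is defective in the H-2b haplotype of C57BL/6 mice. It stood at 5.94, 14.2 and 15.8 CPM in Pelo -/- Lrig1 and at 12.8 and 2.71 CPM in WT Lrig1. Among Lgr6 libraries H2-Eb1 had 2.98, 46.7 and 10.4 CPM in Pelo -/- against 30.7, 47.8 and 19.9 CPM in WT. The Lgr5 libraries held 0.352, 0.213 and 0.859 CPM in Pelo -/- and 0.135, 0.449 and 1.15 CPM in WT. Replicates of 1 group differed widely here, and the second Pelo -/- Lgr6 library lay among the WT Lgr6 libraries.

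**Figure D1:**
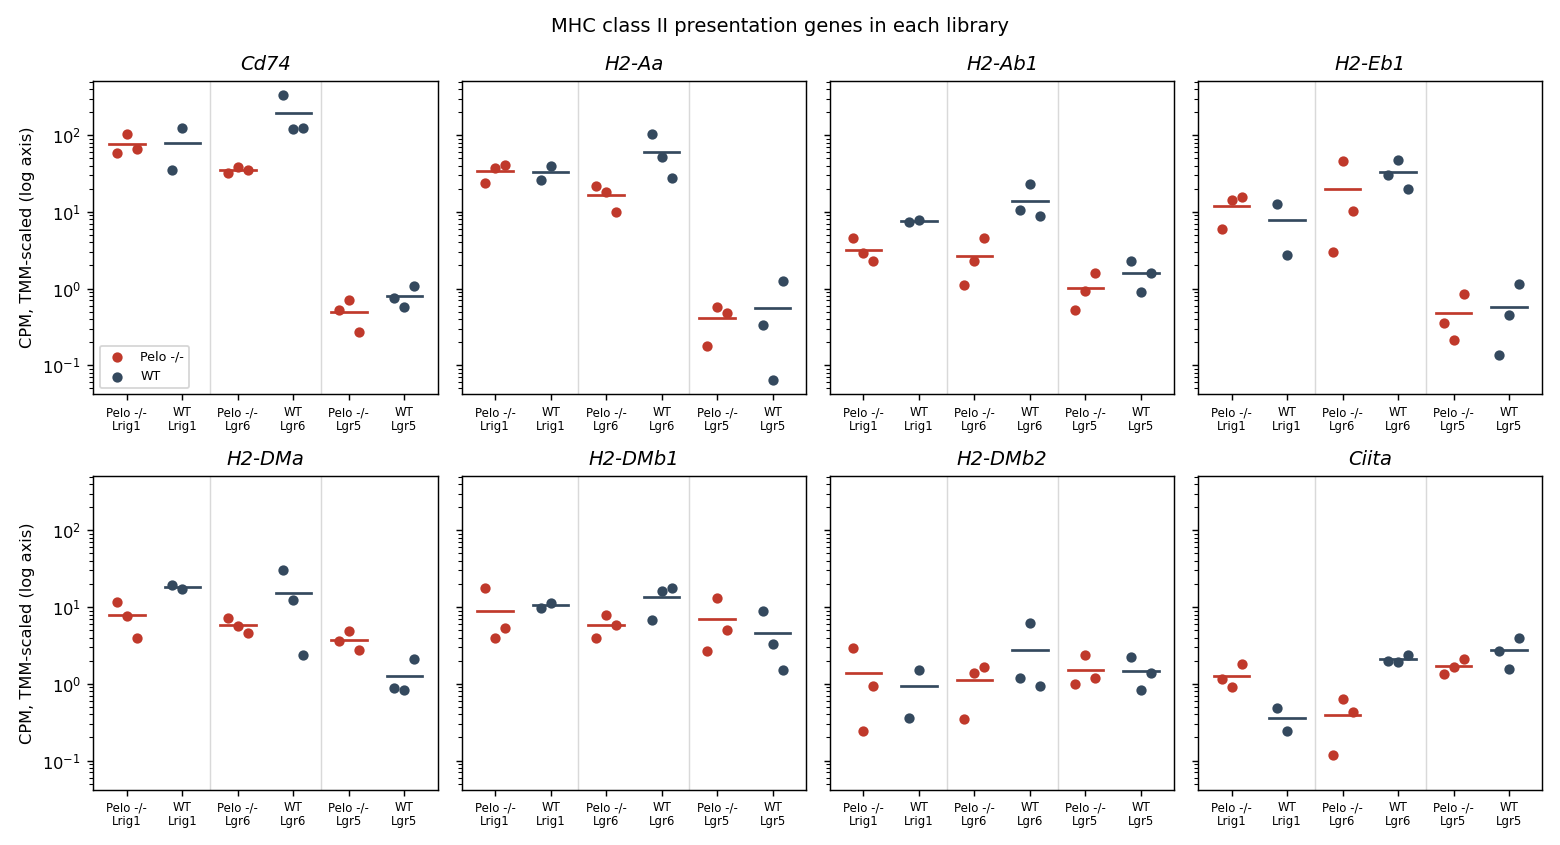
Level of each class II gene in each of the 17 libraries, as TMM-scaled CPM on a log axis, by group; each point is 1 library and each line the group mean. The Lgr5 libraries hold 0.268 to 1.09 CPM of Cd74 and the others 32.4 to 330.8 CPM, while H2-DMb2 and Ciita stay low in all groups.

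The DM genes, whose products load peptides, were moderate to low. H2-DMa stood at 11.7, 7.66 and 3.97 CPM in Pelo -/- Lrig1 and at 19.5 and 17.3 CPM in WT Lrig1. It stood at 7.20, 5.62 and 4.57 CPM in Pelo -/- Lgr6 and at 30.4, 12.3 and 2.38 CPM in WT Lgr6. Among Lgr5 libraries H2-DMa had 3.64, 4.82 and 2.74 CPM in Pelo -/- against 0.879, 0.833 and 2.13 CPM in WT. The WT Lgr5 libraries were the lowest 3 of all 17. H2-DMb1 ranged from 1.53 to 17.6 CPM over all libraries and H2-DMb2 from 0.241 to 6.15 CPM, and all neighbouring groups in the order of either gene overlapped.

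Ciita was scarce and did not follow the split of Cd74. It stood at 1.14, 0.905 and 1.79 CPM in Pelo -/- Lrig1 and at 0.479 and 0.242 CPM in WT Lrig1. It stood at 0.117, 0.625 and 0.425 CPM in Pelo -/- Lgr6 and at 1.97, 1.92 and 2.38 CPM in WT Lgr6. Among Lgr5 libraries Ciita had 1.35, 1.63 and 2.09 CPM in Pelo -/- against 2.70, 1.54 and 3.99 CPM in WT. WT Lgr5, the group with almost no Cd74, thus had the highest mean of its activator gene, and WT Lrig1 and Pelo -/- Lgr6 had the lowest means. All of these rested on 2 to 73 counts per library.

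Cd74 made up 31.6% to 64.2% of the summed CPM of the 8 genes in Lrig1 and Lgr6 libraries and 1.89% to 7.75% in Lgr5 libraries. Per kilobase of exon, group means of Cd74 were 45.4 ± 14.1 CPM in Pelo -/- Lrig1 and 47.05 ± 36.7 CPM in WT Lrig1 (SD, n = 3 and 2). They were 21.1 ± 1.81 CPM in Pelo -/- Lgr6 and 114 ± 71.5 CPM in WT Lgr6 (SD, n = 3 each). On the same per-kilobase scale H2-Eb1 averaged 10.3 ± 12.03 CPM in Pelo -/- Lgr6 and 16.9 ± 7.23 CPM in WT Lgr6, and H2-Aa averaged 4.38 ± 1.56 and 15.99 ± 10.08 CPM in those 2 groups. Cd74 was the highest of the 8 genes per kilobase in every Lrig1 and Lgr6 group mean. In Lgr5 cells the highest per-kilobase mean was that of H2-DMb1, with 4.11 ± 3.27 CPM in Pelo -/- and 2.72 ± 2.30 CPM in WT (SD, n = 3 each).

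Lrig1 and Lgr5 cells were compared within each genotype, and the 2 comparisons share no library. In WT, Cd74, H2-Aa, H2-Eb1 and H2-DMa were higher in Lrig1 cells by edgeR's quasi-likelihood test with Benjamini-Hochberg adjustment over all tested genes at 0.05. That is 4 of 8 genes, against a background of 9.09% of all tested genes called higher and 1.99% called lower. In Pelo -/-, Cd74, H2-Aa and H2-Eb1 were higher, which is 3 of 8 genes against 5.77% of all tested genes called higher and 2.08% called lower. No member was called lower in either genotype. In Pelo -/- 4 genes lay higher without overlap of the groups, against 14.3% of all tested genes, and none lower, against 17.8%. In WT 6 genes lay higher without overlap, against 19.7% of all tested genes, and 1 lower, against 25.4%. In both genotypes 6 of 8 were higher in value. The median log2 fold change of the 8 genes was 1.36 in Pelo -/- and 2.98 in WT, beside -0.64 in Pelo -/- and -0.99 in WT over all tested genes.

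Cd74 had the highest fold change of the 8 genes in both genotypes. Its log2 fold change of Lrig1 over Lgr5 was 7.25 ± 0.62 in Pelo -/- (152 times, edgeR adjusted p = 9.59e-08) and 6.60 ± 0.61 in WT (96.8 times, edgeR adjusted p = 1.73e-07). For H2-Aa it was 6.36 ± 0.79 in Pelo -/- (edgeR adjusted p = 9.30e-06) and 5.85 ± 0.79 in WT (edgeR adjusted p = 1.50e-05). H2-Eb1 had 4.62 ± 0.97 in Pelo -/- (edgeR adjusted p = 0.00330) and 3.71 ± 0.98 in WT (edgeR adjusted p = 0.0127). In each of these pairs all Lrig1 libraries lay above all Lgr5 libraries. The H2-Eb1 call in WT rests on few libraries: without WT Lrig1 replicate 1 its log2 fold change was 2.35 (edgeR adjusted p = 0.192), and without WT Lgr5 replicate 1 it was 3.23 (edgeR adjusted p = 0.0536).

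H2-DMa differed between the populations in WT (3.83 ± 0.87, edgeR adjusted p = 0.00395) and missed the threshold in Pelo -/- (1.06 ± 0.76, edgeR adjusted p = 0.390). The difference between those values is the same quantity as the difference between the Pelo effects in Lrig1 and Lgr5 cells, -2.77 ± 1.13, and it did not pass (edgeR adjusted p = 0.909). H2-Ab1 missed the threshold in both genotypes, with 1.65 ± 0.80 in Pelo -/- and 2.25 ± 0.86 in WT (edgeR adjusted p = 0.214 and 0.0930). All of its Lrig1 libraries nevertheless lay above all Lgr5 libraries of the same genotype. H2-DMb1 and H2-DMb2 had log2 fold changes between -0.66 and 1.20 in the 2 genotypes, none past the threshold.

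Ciita was lower in value in Lrig1 cells, with -0.40 ± 0.87 in Pelo -/- (edgeR adjusted p = 0.776) and -2.91 ± 1.10 in WT (edgeR adjusted p = 0.0877). The median over all tested genes was -0.64 in Pelo -/- and -0.99 in WT, so the Pelo -/- value lay above it. Both WT Lrig1 libraries lay below all 3 WT Lgr5 libraries. The WT difference passed the threshold in DESeq2 (-3.35, adjusted p = 0.00031) and in limma-voom (-2.84, adjusted p = 0.0429), so its call depends on the tool.

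The size of all such population differences depends on scaling. With RLE size factors the median over all tested genes in the WT comparison was -1.36 in place of -0.99, and 2117 genes were called higher and 946 lower in place of 2765 and 604. The same 4 members were called in WT and the same 3 in Pelo -/- under RLE.

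**Figure D2:**
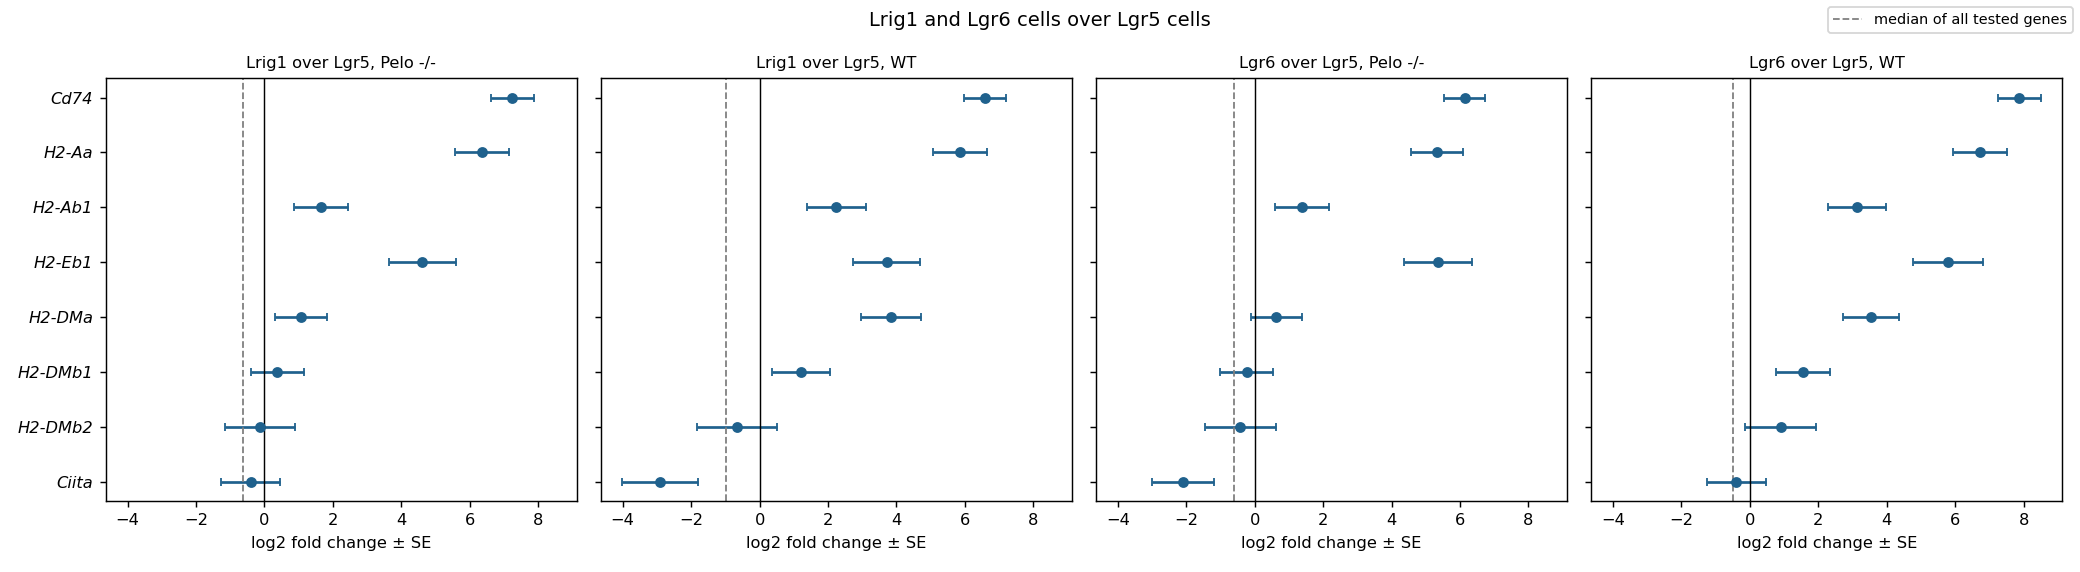
Log2 fold changes of the 8 class II genes in Lrig1 over Lgr5 and in Lgr6 over Lgr5 cells, by genotype, with standard errors from the edgeR fit; dashed lines give the median of all 30405 tested genes. Cd74 lies between 6.14 and 7.88 in the 4 panels. Ciita lies below 0 in each, but above the dashed line for Lrig1 in Pelo -/- and for Lgr6 in WT.

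The Lgr6 libraries showed the same class II split from Lgr5 cells, given here without a test. In Pelo -/- the log2 fold change of Lgr6 over Lgr5 was 6.14 ± 0.60 for Cd74, 5.33 ± 0.76 for H2-Aa and 5.35 ± 1.00 for H2-Eb1. In WT it was 7.88 ± 0.63 for Cd74, 6.73 ± 0.80 for H2-Aa and 5.79 ± 1.02 for H2-Eb1. In Pelo -/- 3 genes lay higher without overlap, against 15.5% of all tested genes, and Ciita lay lower without overlap, against 17.3%. In WT 5 genes lay higher without overlap, against 17.2% of all tested genes. In WT, 7 of 8 genes were higher in value in Lgr6 than in Lrig1 cells, and 3 of them (H2-Ab1, H2-Eb1 and Ciita) did not overlap, against 12.8% of all tested genes. The median of the 8 genes there was 1.09, beside 0.34 over all tested genes. Among Pelo -/- libraries 7 of 8 genes were instead lower in value in Lgr6 than in Lrig1, and Cd74, H2-Aa and Ciita did not overlap, against 3.97% of all tested genes lower and 5.71% higher.

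Between genotypes, the Lgr6 cells are the comparison that led to the choice of these genes, and nothing is read from its counts. All 8 genes were lower in value in Pelo -/- Lgr6 than in WT Lgr6. The log2 fold change was -2.44 ± 0.48 for Cd74, with group means of 35.4 ± 3.04 CPM in Pelo -/- and 192 ± 120.0 CPM in WT (SD, n = 3 each). It was -1.87 ± 0.63 for H2-Aa, -2.38 ± 0.81 for H2-Ab1 and -2.41 ± 0.92 for Ciita. These 4 genes did not overlap between the groups, which held for 5.74% of all tested genes in that direction and for 2.5% in the other. H2-Eb1 (-0.71 ± 0.81), H2-DMa (-1.37 ± 0.76), H2-DMb1 (-1.20 ± 0.78) and H2-DMb2 (-1.29 ± 1.04) overlapped. The median of the 8 genes was -1.62, beside -0.27 over all tested genes. WT Lgr6 replicate 1 held the highest Cd74 of the study, and without it the log2 fold change of Cd74 was -1.79.

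**Figure D3:**
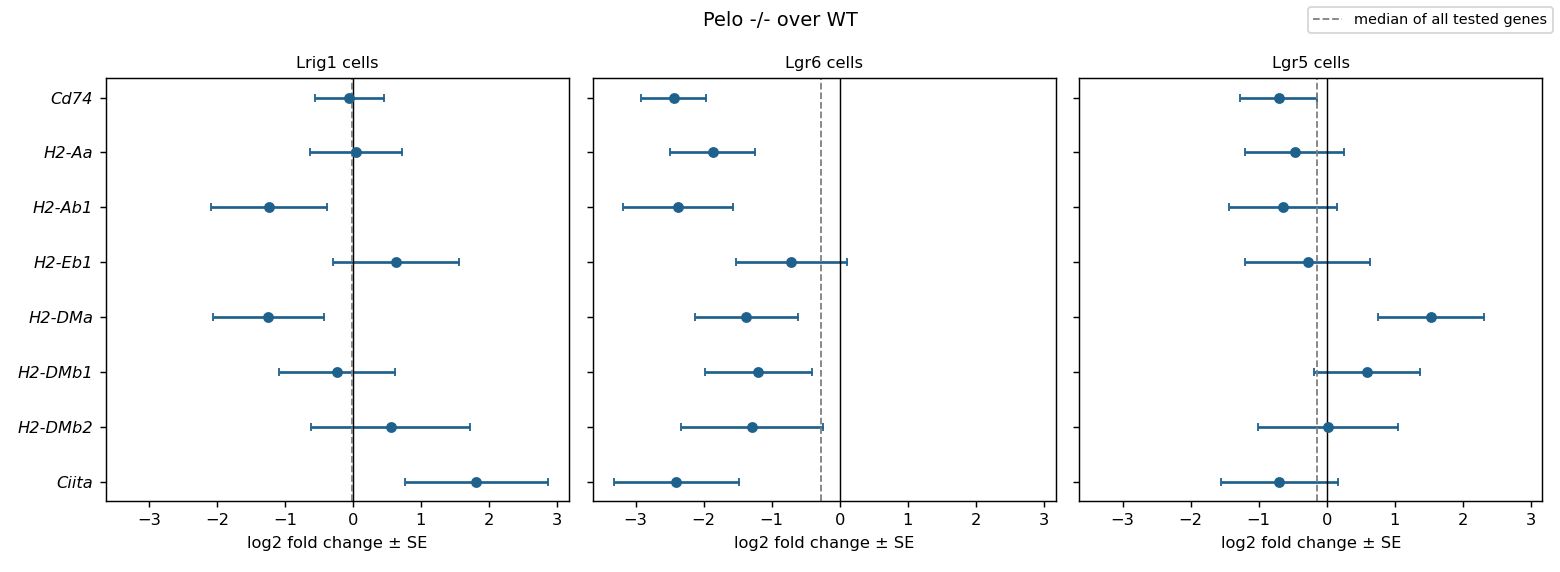
Log2 fold changes of the 8 class II genes in Pelo -/- over WT cells of each population, with standard errors from the edgeR fit; dashed lines give the median of all 30405 tested genes. All 8 values lie below 0 in Lgr6 cells, between -2.44 and -0.71, and they lie on both sides of 0 in Lrig1 and Lgr5 cells.

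In Lrig1 cells no class II gene passed the test between Pelo -/- and WT. edgeR called 0% of all tested genes in either direction there and 0 of the 8 members, and 0 of the 8 had an unadjusted p under 0.05. DESeq2 and limma-voom also called 0 of the 8. Cd74 had a log2 fold change of -0.05 ± 0.51 (95% interval -1.05 to 0.95, edgeR adjusted p = 1). Its value turned on the 2 WT libraries, with 1.28 when WT Lrig1 replicate 2 was left out and -0.75 without WT Lrig1 replicate 1. H2-Aa had 0.04 ± 0.68 (95% interval -1.29 to 1.37). H2-Ab1 (-1.23 ± 0.85) and H2-DMa (-1.24 ± 0.82) lay lower in Pelo -/- without overlap, against 10.7% of all tested genes. Ciita (1.81 ± 1.05) lay higher in Pelo -/- without overlap, against 8.17%. None of these passed the test (edgeR adjusted p = 1 for each).

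In Lgr5 cells no class II gene passed the test between Pelo -/- and WT either, where edgeR called 0.0197% of all tested genes higher and 0% lower. DESeq2 and limma-voom called 0 of the 8, and 0 of the 8 had an unadjusted p under 0.05. Cd74 was near its floor in both genotypes, with a log2 fold change of -0.71 ± 0.57 (edgeR adjusted p = 0.991). H2-DMa was higher in Pelo -/- without overlap, which held for 3.8% of all tested genes (4.41% were lower without overlap), at 1.53 ± 0.78 (edgeR adjusted p = 0.825). Its level there was 3.73 ± 1.05 CPM in Pelo -/- and 1.28 ± 0.737 CPM in WT (SD, n = 3 each).

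The Pelo effect was also compared between Lrig1 and Lgr5 cells. None of the 8 genes passed, and edgeR called 0% of all tested genes. The largest differences were those of H2-DMa (-2.77 ± 1.13, edgeR adjusted p = 0.909), the 1 gene of the 8 with an unadjusted p under 0.05, and Ciita (2.51 ± 1.35, edgeR adjusted p = 0.933). Differences that involve the Lgr6 libraries are values only. The Pelo effect in Lgr6 minus that in Lrig1 was -2.39 ± 0.71 for Cd74, -1.91 ± 0.93 for H2-Aa and -4.22 ± 1.41 for Ciita, and below 0 for all 8 genes.

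Of 13 genes that process antigen or edit class II loading, 2 were called higher in Lrig1 than in Lgr5 cells in Pelo -/- and 3 in WT, and none lower (edgeR at 0.05). Over all tested genes 5.77% were called higher in Pelo -/- and 9.09% in WT. The list had a median log2 fold change of -0.77 in Pelo -/- and 0.16 in WT, beside -0.64 in Pelo -/- and -0.99 in WT over all tested genes. Ctsh, a lysosomal cysteine protease, had a log2 fold change of 4.02 ± 0.70 in Pelo -/- (edgeR adjusted p = 0.000794) and 4.36 ± 0.74 in WT (edgeR adjusted p = 0.000354). Ctsb had 1.12 ± 0.35 in Pelo -/- and 1.92 ± 0.39 in WT (edgeR adjusted p = 0.0497 and 0.00121). Ctsd was called in WT only (2.26 ± 0.48, edgeR adjusted p = 0.00206), and the difference between genotypes was not called. The Ctsb call in Pelo -/- was lost in 5 of 6 fits that left out a library of this comparison, all but the one without Pelo -/- Lgr5 replicate 1, with an edgeR adjusted p up to 0.199. These proteases serve general lysosomal breakdown as well as antigen processing. Ifi30, a lysosomal thiol reductase that opens antigens, had 0.84 ± 0.49 in Pelo -/- and 1.28 ± 0.54 in WT, below the threshold. Ctss, the protease that cuts the invariant chain in myeloid cells, stood at 2.03 CPM or less in every library, and Ctsl, its counterpart in epithelia, stood between 82.1 and 270.6 CPM. The DO genes H2-Oa and H2-Ob, which restrain DM in B cells, stood at 1.47 CPM or less.

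The factors that bind the X and Y boxes were present in all populations. Of 7 genes, 0 were called in Pelo -/- and 1 in WT, Nfyc, a subunit of the Y box factor, at 1.55 ± 0.48 (edgeR adjusted p = 0.0338). That is near the 9.09% of all tested genes called higher there. The Nfyc call was lost in 4 of 5 fits that left out a library of this comparison, all but the one without WT Lgr5 replicate 2, with an edgeR adjusted p up to 0.274. Rfx5, whose product binds the X box, had log2 fold changes of 1.69 ± 0.84 in Pelo -/- and 1.00 ± 0.91 in WT, and Nfya and Rfxank also missed the threshold.

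Of the interferon gamma pathway, 9 of 10 genes were tested, and Ifng itself fell below the filter with 0 to 6 counts per library. In Lrig1 over Lgr5 cells 1 of the 9 was called higher in Pelo -/- and 3 in WT, against 5.77% and 9.09% of all tested genes in those genotypes. Leaving out a library gave 1 in Pelo -/- and 2 to 4 in WT, where the Jak1 call was lost without WT Lrig1 replicate 2 (edgeR adjusted p = 0.172). Ifngr1, the ligand-binding receptor chain, had 5.01 ± 0.48 in Pelo -/- and 5.54 ± 0.50 in WT (edgeR adjusted p = 2.60e-07 and 1.53e-07), a split much like that of Cd74. Jak1 (1.65 ± 0.39, edgeR adjusted p = 0.00502) and Irf1 (3.07 ± 0.75, edgeR adjusted p = 0.00693) were called in WT, while Irf2 had 1.27 ± 0.44 there (edgeR adjusted p = 0.0624). Of 10 genes for costimulation of T cells none was called in either genotype. Icam1 came nearest in WT (1.97 ± 0.67, edgeR adjusted p = 0.0589), and Cd80 and Cd86, the classical ligands of professional presenting cells, stood at 2.30 CPM or less in every library. No gene of these 4 lists was called between Pelo -/- and WT in Lrig1 or Lgr5 cells. In Lgr6 cells, given as values only, the median log2 fold change of Pelo -/- over WT was -0.19 for the processing genes, 0.23 for the promoter factors, -0.42 for the interferon gamma genes and -1.12 for the costimulation genes, beside -0.27 over all tested genes.

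Markers of Langerhans cells and macrophages did not share the split of Cd74 between populations in sum, although single markers differed. The summed level of all 15 markers was 12.8 to 44.9 CPM in the Lgr6 libraries, 16.2 to 30.2 CPM in the Lrig1 libraries and 14.4 to 34.7 CPM in the Lgr5 libraries. None of the 15 was called between Lrig1 and Lgr5 cells in either genotype. In value 6 were higher and 9 lower in Lrig1 cells in Pelo -/-, and 4 higher and 11 lower in WT. Their median log2 fold change was -0.78 in Pelo -/- and -1.35 in WT, beside -0.64 and -0.99 over all tested genes. Cd68 stood at 10.4 and 12.9 CPM in WT Lrig1 against 2.03 to 5.45 CPM in WT Lgr5, and overlapped in Pelo -/-. Cx3cr1 reached 10.9 CPM in Lrig1, 8.23 CPM in Lgr6 and 1.83 CPM in Lgr5 libraries. Fcer1g reached 6.21, 16.0 and 1.53 CPM in the same order, from 0 in Lrig1 and Lgr5 libraries. Cd207, which encodes langerin, the defining protein of Langerhans cells, stood at 0.193 to 2.70 CPM in Lrig1, 0.106 to 5.13 CPM in Lgr6 and 0.117 to 2.24 CPM in Lgr5 libraries. It was counted at least 2 times in every library. Ptprc, the pan-leukocyte marker, stood at 0.121 to 1.17 CPM in Lrig1 and at 0.449 to 6.45 CPM in Lgr5 libraries.

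Dendritic, B cell and endothelial markers were not higher in Lrig1 cells either. The 8 dendritic cell markers summed to 1.21 to 4.26 CPM in Lrig1 and 4.11 to 17.1 CPM in Lgr5 libraries. The 8 B cell markers summed to 3.35 to 10.9 CPM in Lrig1 and 5.64 to 18.5 CPM in Lgr5 libraries, and the 8 endothelial markers to 2.65 to 6.95 CPM in Lrig1 and 10.1 to 32.1 CPM in Lgr5 libraries. None of these 24 was called between Lrig1 and Lgr5 cells. The T cell markers ran the other way in sum. They reached 23.7, 41.0 and 34.7 CPM in Pelo -/- Lrig1 against 27.8, 8.51 and 8.86 CPM in Pelo -/- Lgr5, which overlapped, and 15.9 and 20.1 CPM in WT Lrig1 against 8.11, 5.19 and 15.04 CPM in WT Lgr5, which did not. Of these sums Thy1 alone held 12.4 to 20.9 CPM in the Lrig1 and 0.513 to 3.40 CPM in the Lgr5 libraries. In WT 2 of the 9 tested T cell markers were higher in value in Lrig1 cells and 7 lower. In Pelo -/- 5 were higher and 4 lower. Their median log2 fold change was -2.08 in WT and 0.54 in Pelo -/-, beside -0.99 and -0.64 over all tested genes. The part of T cells in the class II difference was not tested. Of 9 tested T cell markers only Thy1, which other cells of the skin also express, was called higher in Lrig1, at 3.23 ± 0.62 in Pelo -/- and 3.99 ± 0.67 in WT (edgeR adjusted p = 0.00126 and 0.000198). Of the 12 keratinocyte and follicle markers 4 were called higher in each genotype, among them Krt14 at 3.54 ± 0.45 in Pelo -/- and 4.43 ± 0.48 in WT (edgeR adjusted p = 1.11e-05 and 1.36e-06), and 3 were called lower in Pelo -/- and 2 in WT.

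Within the Lgr6 cells most leukocyte markers were lower in value in Pelo -/-, as the class II genes were. The 15 Langerhans cell and macrophage markers summed to 14.3, 13.7 and 16.1 CPM in Pelo -/- Lgr6 and to 44.9, 20.8 and 12.8 CPM in WT Lgr6. The groups overlapped because the third WT library was the lowest. Cd74 stood at 124.7 CPM in that library. Of the 15 markers 13 were lower in value in Pelo -/- and their median log2 fold change was -1.72, beside -0.27 over all tested genes. All 8 dendritic cell markers were lower in value as well, with sums of 2.34, 2.19 and 2.02 CPM in Pelo -/- and 4.83, 4.28 and 5.69 CPM in WT. All 8 endothelial markers were lower in value too, at a median log2 fold change of -0.94. The endothelial sums overlapped, with 3.35 to 6.90 CPM in Pelo -/- and 2.22 to 11.7 CPM in WT. The 8 B cell markers summed to 1.96 to 5.21 CPM in Pelo -/- and 4.50 to 7.71 CPM in WT. The T cell markers summed to 36.5 to 42.2 CPM in Pelo -/- and 23.3 to 73.1 CPM in WT. Thy1 alone held 19.7 to 40.2 CPM of these T cell sums in Pelo -/- and 18.9 to 35.4 CPM in WT. Tyrobp was at 0 in 1 library of each genotype, and Csf1r stood at 0.117 to 0.312 CPM in Pelo -/- and 0.362 to 1.49 CPM in WT. WT Lgr6 replicate 1, the library with the most Cd74, also held the most Cd207 (5.13 CPM), Fcer1g (15.98 CPM) and Cd3g (24.3 CPM). In Lgr5 cells all 8 dendritic cell, all 8 endothelial and 7 of 8 B cell markers were also lower in value in Pelo -/-. Their medians were -0.64, -0.90 and -0.58, beside -0.14 over all tested genes. Of 15 Langerhans cell and macrophage markers 9 were lower there, and of 9 T cell markers 3. In Lrig1 cells 7 of 8 endothelial, 4 of 8 dendritic cell and 3 of 8 B cell markers were lower. There 6 of 15 Langerhans cell and macrophage markers and 2 of 9 T cell markers were lower. The part of leukocytes in the level of class II RNA in these sorts was not tested.

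**Figure D4:**
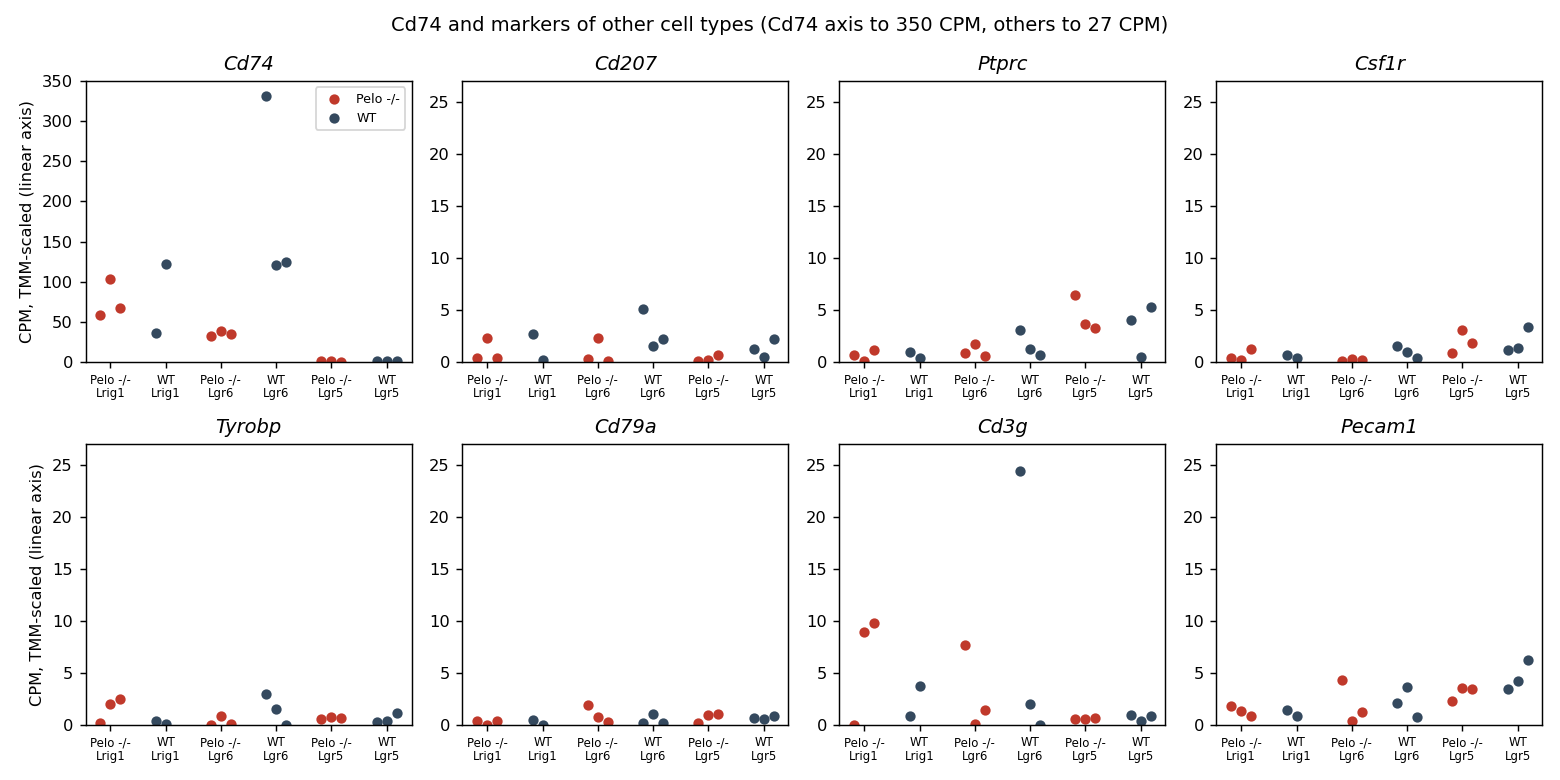
Cd74 and defining markers of other cell types in each library, as TMM-scaled CPM on linear axes, with a longer axis for Cd74 than for the others; each point is 1 library. Cd207, Ptprc, Csf1r, Tyrobp, Cd79a and Pecam1 stay at or below 6.45 CPM in all groups, and Cd3g reaches 24.3 CPM in WT Lgr6 replicate 1.

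Across libraries the members moved together only in part once group means were removed. The deviations of H2-Aa from its group means had a Pearson r of 0.54 and a Spearman rho of 0.50 with those of Cd74 over the 17 libraries, and those of H2-DMa an r of 0.47 and a rho of 0.42. The other 5 members had an r between -0.25 and 0.02. Without WT Lgr6 replicate 1 and WT Lrig1 replicate 1, the 2 libraries farthest out in Cd74, r was 0.47 for H2-Aa and 0.37 for H2-DMa. The libraries share groups and differ in depth, so these values are descriptions.

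Among 9394 genes with a mean of at least 5 CPM, leaving out the 8 members and predicted, Rik or similar unnamed genes and pseudogenes, the 10 whose deviations were most like those of Cd74 were Ovol1, Cep57, Cep162, Porcn, Cldn34c1, Utp14b, Foxn1, Zfp750, Krt78 and Fam69a, with an r between 0.76 and 0.85 over 17 libraries. Ovol1 had an r of 0.85 and a rho of 0.88, and an r of 0.82 without the 2 farthest libraries. These 10 are the highest of 9394 values over only 17 libraries, and such a search alone can give high values. No test was made of them, so they are descriptions. Of the markers read, Fcer1g had an r of 0.61, Cd3g of 0.49, Cd207 of -0.0048, Krt14 of -0.52 and Cd79a of -0.54.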

How the data were processed

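The deposited table holds whole-number read counts per gene for 17 libraries, and the authors' counts were used as deposited. The submitters' processing notes name STAR, edgeR, GRCm38 and mm10. The sources used here do not give tool versions, the annotation, strand use or the treatment of shared reads. For library preparation the labels cite Picelli. Of 48820 identifiers, 48144 matched GENCODE M21 on GRCm38, which gave symbols, positions and exon lengths. The members, gene lists and promoter motifs were chosen with earlier results of these data known.

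All libraries entered 1 edgeR quasi-likelihood fit (edgeR 4.0.16, R 4.3.3, robust, TMM, 1 coefficient per group). filterByExpr (minimum count 10, minimum total 15) kept 30405 genes. Calls were made at 0.05 after Benjamini-Hochberg adjustment across these genes within each comparison. CPM values are TMM-scaled, ± after a log2 fold change is its SE, and 95% intervals are normal. Alternatives were RLE size factors, no filter, a minimum mean of 5 CPM, DESeq2 1.42.0, limma-voom (limma 3.58.1), a replicate block, only the groups compared, and leaving out each library. The fit was tested on simulated data. Replicates of a group differed beyond sampling noise (smallest chi-square per degree of freedom 45.1).

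All members are named in every comparison. Of each list of other pathway genes up to 4 with the smallest p in WT Lrig1 against Lgr5 cells were to be named, with any called elsewhere. Of each marker list the defining markers and up to 3 of highest mean were to be named. Likeness used log2 CPM with a prior count of 2. Some others (Ctss, Ctsl, H2-Oa, H2-Ob, Fcer1g, Cd3g, Tyrobp and Thy1 among them) were chosen after their values were seen. No sequence is printed for Cd74, H2-Ab1, Ciita, H2-DMa or H2-DMb1.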

Additional observations from a re-analysis of the deposited data

Results flagged for a closer look

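Ciita values lay on opposite sides between Pelo -/- and WT in 2 populations. Neither is a called change, since the Lrig1 value did not pass (edgeR adjusted p = 1) and the Lgr6 value was not tested. All 3 Pelo -/- Lrig1 libraries lay above both WT Lrig1 libraries, with a log2 fold change of 1.81 on 5 to 23 counts per library. That held for 8.17% of all tested genes. All 3 Pelo -/- Lgr6 libraries lay below all 3 WT Lgr6 libraries, with a log2 fold change of -2.41 on 2 to 46 counts per library. In that direction 5.74% of all tested genes did not overlap. The difference between these effects was not tested, because the Lgr6 comparison was used to choose the genes.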

How the results depend on the processing

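The number of members called was 4 in WT and 3 in Pelo -/- for Lrig1 against Lgr5 cells, and 0 in the other tested comparisons. With the replicate block these counts were 4, 3, 0, 0 and 0. Same-numbered samples of compared groups had deviations that correlated at -0.0101 to 0.186. Between Pelo -/- and WT, different-numbered samples correlated at -0.223 to 0.0871. The numbers were not taken as pairs in the main fit, but these values do not exclude a shared structure of replicates between genotypes. Across leave-one-out fits the counts were 3 to 4 in WT, 3 in Pelo -/- and 0 elsewhere. A fit without 1 WT Lrig1 library leaves a lone library that is assumed to vary like the other groups. In Lgr6 cells, where 8 of 8 members were lower in value in Pelo -/-, a minimum mean of 5 CPM left 5 members, all 5 lower. Leaving out libraries gave 7 to 8 members lower there, with -1.67 to 0.091 for H2-DMb2 and -2.29 to -0.19 for H2-Eb1.

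H2-Eb1 in WT Lrig1 over Lgr5 cells lost its call with a minimum mean of 5 CPM (adjusted p = 0.0676), limma-voom (0.0511) and only the groups compared (0.0816), over a range up to 0.192 without WT Lrig1 replicate 1. H2-Ab1 gained one with DESeq2 (adjusted p = 0.0247).

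Reversals in the tested comparisons were of members called in none of the fits of that comparison, with reported values between -0.83 and 0.65. The cause of these reversals was not tested. For Pelo -/- over WT in Lrig1 cells, Cd74 became 0.12 in limma-voom and 0.078 with the block, and H2-Aa -0.0045 and -0.024. Leaving out libraries gave -0.75 to 1.28 for Cd74, -0.29 to 0.52 for H2-Aa, -1.18 to 0.13 for H2-DMb1 and -0.68 to 2.03 for H2-DMb2. In Lgr5 cells, H2-Aa became 0.12 in limma-voom. H2-DMb2 became -0.15 with RLE, DESeq2 and the block, and -0.031 with only the groups compared. Leaving out libraries gave -1.09 to 0.96 for H2-Aa, -1.03 to 0.61 for H2-Eb1, -0.26 to 1.52 for H2-DMb1 and -0.44 to 0.43 for H2-DMb2. For Lrig1 over Lgr5 cells, H2-DMb1 in Pelo -/- became -0.21 with a minimum mean of 5 CPM and H2-DMb2 0.043 with no filter and 0.10 with the block. Leaving out libraries gave -0.58 to 1.23 for H2-DMb1 and -1.36 to 0.37 for H2-DMb2 in Pelo -/-, and -2.08 to 0.19 for H2-DMb2 in WT. For the difference of Pelo effects, H2-Aa became -0.12 in limma-voom, and leaving out libraries gave -0.046 to 1.98 for Cd74, -0.89 to 1.19 for H2-Aa, -1.77 to 0.024 for H2-DMb1 and -0.70 to 2.03 for H2-DMb2.

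Over all genes, calls in WT Lrig1 over Lgr5 cells were 2765 higher and 604 lower in the edgeR fit, against 2866 and 4530 in DESeq2, 3517 and 1559 in limma-voom, 1663 and 1403 with a minimum mean of 5 CPM and 1689 and 463 with only the groups compared. In Pelo -/- they were 1753 and 633, against 2352 and 2228 in DESeq2. Pelo -/- over WT in Lgr6 cells had 0 calls of all genes in edgeR (1180 at an unadjusted p under 0.05), 0 in limma-voom, and 3 higher and 15 lower in DESeq2. In Lrig1 cells it had 0 calls in edgeR (1106 unadjusted), 0 in limma-voom, and 18 higher and 15 lower in DESeq2. In Lgr5 cells it had 6 higher in edgeR, 0 in limma-voom, and 90 higher and 99 lower in DESeq2. Depth limits Ciita, H2-DMb2 and, in Lgr5 cells, Cd74, H2-Aa and H2-Eb1, where the counts per library are lowest.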
